A study of Homo sapiens with 8 samples.

Results

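The genes described here code for 7 effectors that bind or act on foreign RNA, most of them switched on by double-stranded RNA (dsRNA): OAS1, OAS2, OAS3, OASL, EIF2AK2, ADAR and ZC3HAV1. They were taken by symbol from an expression table of 60664 genes in THP-1 cells, a line established from an acute monocytic leukaemia, and all 7 were found. The table held 8 libraries in 4 groups of 2 biological replicates: parental cells given DMSO, parental cells given 1 µM DAC, DAC-resistant cells given DMSO and DAC-resistant cells given 1 µM DAC, each for 6 days. DAC is decitabine, a cytosine analogue that traps DNA methyltransferases and lowers DNA methylation. All groups were labelled wild type, and no gene was edited. The DAC-resistant cells were a single line selected by repeated pulses of DAC and then kept without drug before the experiment, so differences between it and the parental line cannot be told apart from differences of that selected line alone. The comparisons ask whether DAC changed the expression of these effectors in either line, whether the lines differed at baseline, and whether the response to DAC differed between them.

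Cells hold several enzymes that are idle until they meet dsRNA, which arises in viral infection and from transcribed repeats. The 2′-5′-oligoadenylate synthetases OAS1, OAS2 and OAS3 make, on binding dsRNA, a short adenylate messenger, while the related OASL makes no such messenger and acts on RNA sensing. EIF2AK2 codes for PKR, a kinase that stops translation by phosphorylating eIF2α. ADAR codes for ADAR1, which converts adenosine to inosine in dsRNA and so blunts its detection. ZC3HAV1 codes for ZAP, an antiviral zinc finger protein that binds CpG-rich RNA and leads it to decay. Several of these genes are induced by interferon, which acts through the interferon-stimulated response element and the gamma-activated site in promoters.

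Reads on genes ranged from 27460261 to 31893971 per library, and the DAC-treated parental libraries were the shallowest pair. Levels are given as FPKM, the fragments scaled to exon length and to counted reads. The authors deposited them multiplied by 1000, and they were divided by 1000 here. The length that gave whole reads was that of all annotated exons of a gene together, for example 11233 bases for OAS2 and 18045 for OAS3. For OASL this length did not give whole reads. Comparisons of level between genes therefore depend on the length used for each. Of 10 monocytic markers, 7 were at or above 1 FPKM in every library (CD33, LYZ, CSF1R, ITGAM, SPI1, CD4 and FCGR1A), whereas CD14, CD68 and MPO fell below it in some. The summed level of these markers moved with the groups: it was 333.4 to 345.7 FPKM in DMSO-treated and 408.4 to 417.3 in DAC-treated parental cells, against 231.3 to 239.4 and 228.7 to 235.8 in DAC-resistant cells. CD4 and SPI1 made up most of this monocytic sum, and single markers differed. With DAC in parental cells the mean of CD14 was 19.9 against 1.52 FPKM and that of LYZ 47.8 against 12 FPKM. The means of CD68, CSF1R, ITGAM, SPI1, FCGR1A and MPO were also higher with DAC. Only CD4, at 123.4 against 157.0 FPKM, and CD33, at 7.86 against 9.83 FPKM, were lower. T cell markers summed to at most 0.727 FPKM and epithelial markers to at most 1.93 FPKM in any library, and erythroid markers to at most 3.08 FPKM. B cell markers summed to 1.56 to 6.30 FPKM, higher in parental cells. Plasma cell markers summed to 2.31 to 2.47 FPKM in DMSO-treated parental cells and to 6.19 to 7.54 FPKM in the other 6 libraries. The part of all these markers in the results was not tested. In bulk RNA, fewer cells expressing a gene and less RNA per cell cannot be told apart.

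On the hg38 build, OAS1 (ENSG00000089127, chr12:112905856-112933219), OAS3 (ENSG00000111331, chr12:112938051-112976460) and OAS2 (ENSG00000111335, chr12:112978395-113011723) lie next to each other on the plus strand, and OASL (ENSG00000135114, chr12:121017763-121039246) lies on the minus strand of the same chromosome. EIF2AK2 (ENSG00000055332, chr2:37099210-37157522), ADAR (ENSG00000160710, chr1:154581695-154628013) and ZC3HAV1 (ENSG00000105939, chr7:139043515-139132122) are on the minus strands of other chromosomes. Promoter windows from RefSeq (GRCh38.p14) matched 5 of the 7 genes: OAS1, OAS3, EIF2AK2, ADAR and ZC3HAV1. The 4 sequences below are from the genes with a window that were called raised by DAC in parental cells, as defined further below. They are ordered by size of change. Each reads 5′ to 3′ on the gene's strand and covers the bases before the start site. For EIF2AK2 it runs 4 bases past the start, to the end of a match. Capitals mark matches, on either strand, to GAAA followed after any 2 bases by GAAA (the core of the interferon-stimulated response element), to GAAANGAAA (the same with 1 base in the gap, added after the sequences were seen) or to TTCNNNGAA (the gamma-activated site).
OAS3, chr12:112938224-112938473, plus strand: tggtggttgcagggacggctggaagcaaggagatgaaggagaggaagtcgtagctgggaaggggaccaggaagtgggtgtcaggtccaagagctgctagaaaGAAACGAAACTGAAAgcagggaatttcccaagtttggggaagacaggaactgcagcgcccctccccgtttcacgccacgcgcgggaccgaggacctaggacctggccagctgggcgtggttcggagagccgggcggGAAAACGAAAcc
OAS1, chr12:112906712-112906961, plus strand: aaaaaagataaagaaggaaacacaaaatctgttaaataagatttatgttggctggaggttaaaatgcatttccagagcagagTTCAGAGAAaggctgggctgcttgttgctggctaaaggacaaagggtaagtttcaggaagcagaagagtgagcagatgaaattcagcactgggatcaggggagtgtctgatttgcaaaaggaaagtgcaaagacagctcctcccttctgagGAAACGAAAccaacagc
EIF2AK2, chr2:37156977-37157230, minus strand: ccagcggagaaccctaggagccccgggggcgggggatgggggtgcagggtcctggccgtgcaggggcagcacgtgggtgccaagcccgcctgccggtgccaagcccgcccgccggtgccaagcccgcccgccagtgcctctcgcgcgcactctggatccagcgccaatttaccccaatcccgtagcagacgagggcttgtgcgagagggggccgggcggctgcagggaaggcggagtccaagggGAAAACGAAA
ADAR, chr1:154627998-154628247, minus strand: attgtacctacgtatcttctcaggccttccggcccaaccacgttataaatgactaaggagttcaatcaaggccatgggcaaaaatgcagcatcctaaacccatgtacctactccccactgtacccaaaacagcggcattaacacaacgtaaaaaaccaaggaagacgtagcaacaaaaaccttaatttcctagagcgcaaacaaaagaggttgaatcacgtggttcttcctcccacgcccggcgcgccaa

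Counting the last base before the start site as -1, OAS3 held GAAACTGAAA at -143 to -134, overlapped by GAAACGAAA at -148 to -140, and GAAAACGAAA at -12 to -3. OAS1 held TTCAGAGAA at -168 to -160 and GAAACGAAA at -17 to -9, and no match to the core of the interferon-stimulated response element. EIF2AK2 held GAAAACGAAA from -6 to 4, across its start site. None of the 3 ADAR windows matched any of the motifs, and ZC3HAV1 held TTCCGGGAA at -104 to -96. Among all 35116 promoter windows of the table, 3.57% held that core, 3.12% GAAANGAAA and 7.66% TTCNNNGAA. A match is a string of letters and does not show binding.

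The 2′-5′-oligoadenylate synthetase genes were low in untreated parental cells and rose steeply with DAC. OAS1 stood at 1.42 and 1.46 FPKM in DMSO-treated parental libraries and at 20.8 and 21.3 FPKM after DAC, and in DAC-resistant cells at 2.92 and 2.71 FPKM in DMSO and 1.58 and 1.69 FPKM in DAC. Both DAC-treated parental libraries were thus far above the other 6, and no group overlapped another. OAS2 stood at 3.32 and 3.60 FPKM in DMSO-treated and 48.8 and 50.8 FPKM in DAC-treated parental cells, and at 10.4 and 10.3 FPKM in DMSO-treated and 6.54 and 6.09 FPKM in DAC-treated DAC-resistant cells. OAS3, whose product responds to long dsRNA, stood at 3.13 and 2.94 FPKM in DMSO-treated and 61.7 and 61.3 FPKM in DAC-treated parental cells, and at 7.93 and 7.86 FPKM in DMSO-treated and 4.26 and 4.36 FPKM in DAC-treated DAC-resistant cells. For OAS2 and OAS3, too, the 4 groups did not overlap. Relative to DMSO-treated parental cells, mean levels after DAC were 14.6-fold (OAS1), 14.4-fold (OAS2) and 20.2-fold (OAS3) higher in parental cells.

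OASL had another balance between the groups. It stood at 0.225 and 0.366 FPKM in DMSO-treated parental libraries, which rest on 45 and 70 reads, and at 7.35 and 6.09 FPKM after DAC. In DAC-resistant cells it was 4.83 and 4.86 FPKM in DMSO and 3.56 and 3.15 FPKM in DAC. The groups did not overlap, but the DMSO-treated DAC-resistant libraries came much closer to the DAC-treated parental ones than for the 3 synthetases. The mean in DMSO-treated DAC-resistant cells was 72.1% of the DAC-treated parental mean for OASL, against 13.4% for OAS1, 20.8% for OAS2 and 12.8% for OAS3. Relative to DMSO-treated parental cells, OASL was 22.8-fold higher after DAC and 16.4-fold higher in untreated DAC-resistant cells. The low starting level makes both folds imprecise.

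EIF2AK2 and ADAR started higher and rose less. EIF2AK2 (PKR) stood at 16.0 and 15.6 FPKM in DMSO-treated and 52.8 and 52.9 FPKM in DAC-treated parental cells, and at 20.3 and 20.6 FPKM in DMSO-treated and 17.3 and 18.4 FPKM in DAC-treated DAC-resistant cells. ADAR had the highest FPKM of the 7 in every library. It stood at 38.3 and 38.5 FPKM in DMSO-treated and 103.2 and 102.6 FPKM in DAC-treated parental cells. In DAC-resistant cells it was at 59.3 and 59.3 FPKM in DMSO and 53.2 and 52.0 FPKM in DAC. Both genes were highest in DAC-treated parental cells without overlap, 3.35-fold (EIF2AK2) and 2.68-fold (ADAR) above DMSO. Because values were per gene, the interferon-inducible p150 and the constitutive p110 forms of ADAR1 cannot be told apart. ZC3HAV1 went another way: it stood at 22.0 and 21.6 FPKM in DMSO-treated and 28.4 and 28.1 FPKM in DAC-treated parental cells, and at 31.6 and 33.7 FPKM in DMSO-treated and 36.3 and 36.0 FPKM in DAC-treated DAC-resistant cells. It was therefore higher in the resistant than in the parental line under both treatments, and its range over the study was the narrowest of the 7 on the log2 scale.

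**Figure D1:**
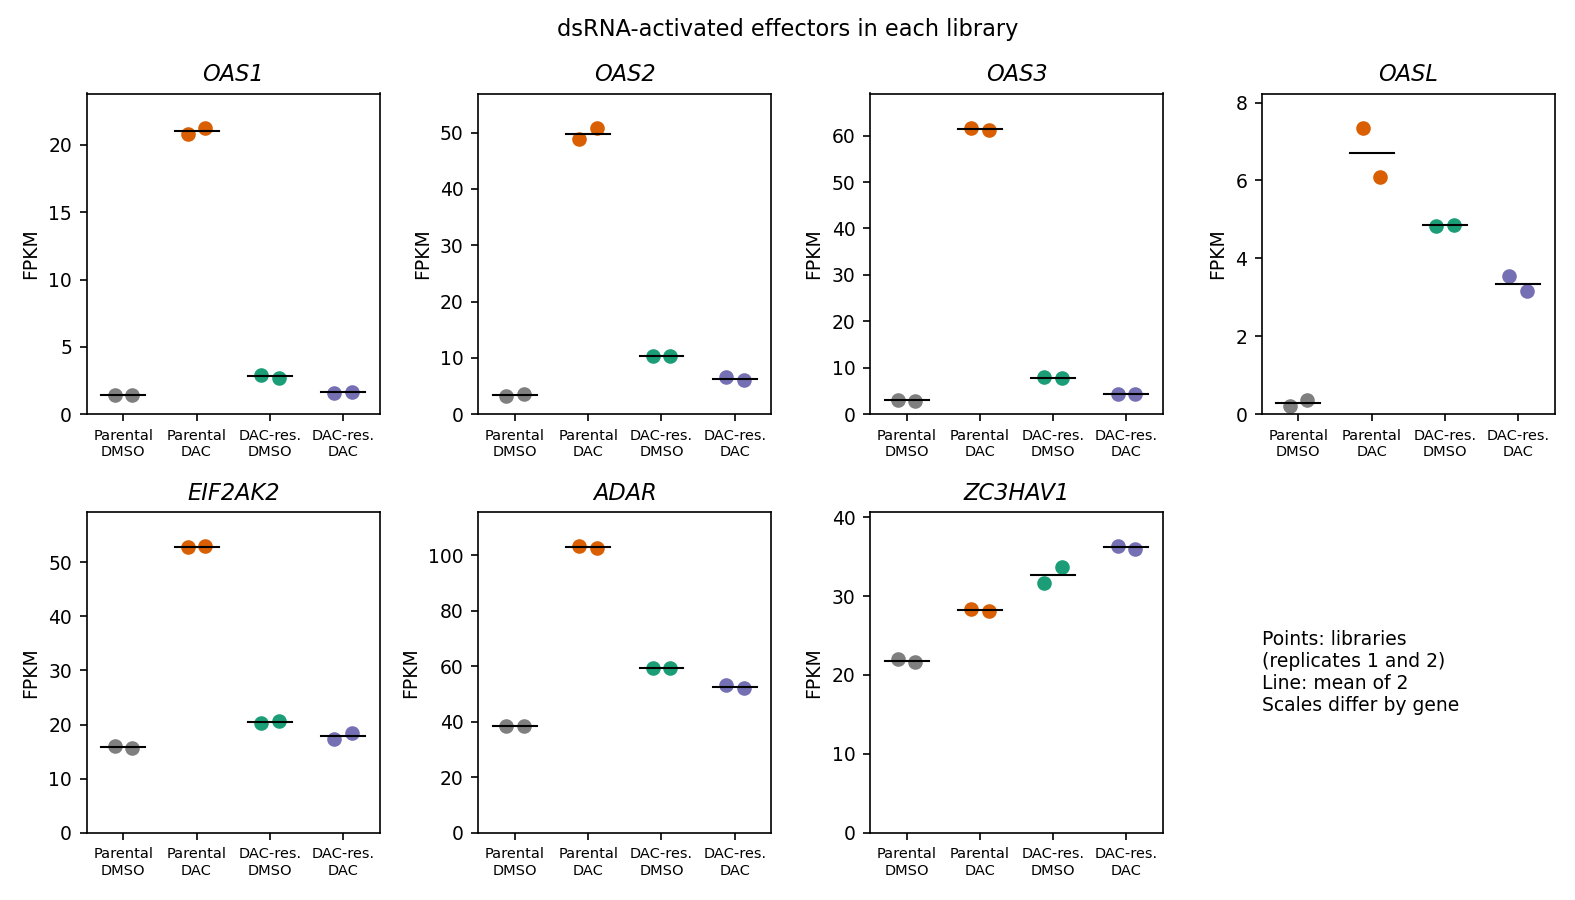
FPKM of the 7 genes in each library, by group, with points for libraries and a line for the mean of 2. The scales differ by gene and start at 0. DAC-treated parental cells were highest for all genes but ZC3HAV1, which was highest in DAC-treated DAC-resistant cells (36.3 and 36.0 FPKM).

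Both DMSO-treated parental libraries were below the other 6 for all 7 genes, an arrangement found for 20.4% of the 14899 genes tested. In 6 of the 7, all but ZC3HAV1, the groups rose in the order DMSO-treated parental, DAC-treated DAC-resistant, DMSO-treated DAC-resistant and DAC-treated parental cells without overlap, which 1.93% of genes tested did. The difference between the lowest 2 groups in this order was not tested. It was narrow for OAS1, at 1.44 ± 0.0333 (SD, n = 2) against 1.63 ± 0.0770 FPKM, and for EIF2AK2, at 15.8 ± 0.267 against 17.8 ± 0.773 FPKM.

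The 4 OAS family genes together gave 8.09 and 8.37 FPKM in DMSO-treated parental cells, 138.7 and 139.4 FPKM after DAC, 26.1 and 25.7 FPKM in DMSO-treated DAC-resistant cells and 15.9 and 15.3 FPKM in DAC-treated DAC-resistant cells. The share of OASL in this sum set the lines apart, whatever the treatment. OASL gave 2.78% and 4.37% of it in DMSO-treated and 5.30% and 4.36% in DAC-treated parental cells, against 18.5% and 18.9% in DMSO-treated and 22.3% and 20.6% in DAC-treated DAC-resistant cells. The share of OAS1 was 15.0% to 17.5% in the parental libraries and 9.89% to 11.2% in the DAC-resistant libraries. The share of OAS3 was 35.2% to 44.5% in the parental and 26.7% to 30.5% in the DAC-resistant libraries. OAS2 kept a like share in both lines, 35.2% to 43.0% and 39.9% to 41.1%. These shares are descriptions on the FPKM scale, depend on the exon length used for each gene and carry no test.

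DAC raised 6 of the 7 genes in parental cells, and ZC3HAV1 alone stayed under the threshold. A gene was called where limma gave a p of at most 0.01 and a change of at least 1 on the log2(FPKM + 1) scale, which 6.66% of genes tested met in the upward direction. The added pseudocount of 1 FPKM understates changes of low genes, above all OASL. The log2 fold changes were 3.95 ± 0.040 (SE) for OAS3, 3.51 ± 0.051 for OAS2, 3.18 ± 0.057 for OAS1 and 2.57 ± 0.10 for OASL, with adjusted p-values (limma, Benjamini-Hochberg over all genes) from 2.9e-08 to 3.7e-06. They were 1.68 ± 0.036 for EIF2AK2 (adjusted p = 2.5e-07) and 1.40 ± 0.022 for ADAR (adjusted p = 1.0e-07). ZC3HAV1 was 0.36 ± 0.035 higher, with an adjusted p of 2.0e-04 but short of the fold threshold. All 7 genes were higher in both DAC-treated libraries than in both DMSO-treated ones, and at an adjusted p under 0.05, the share of all genes that were higher was 33.6%. The median change was 2.57 over the 7 genes and 0.057 over all genes tested. With 2 libraries against 2, an exact permutation test of a single gene cannot go below p = 0.333, and the limma p-values rest on a model with 4 residual degrees of freedom. The labels call the replicates biological without saying how they were kept apart, so the p-values measure the spread between these libraries.

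In DAC-resistant cells the same dose did not raise the 6 genes. None of the 7 was called in either direction, where 0.114% of genes tested were called raised and 0.121% lowered. The synthetases were lower after DAC than in DMSO, by log2 changes of -0.54 (95% interval -0.67 to -0.40, adjusted p = 0.0037) for OAS1, -0.63 (-0.76 to -0.51, adjusted p = 0.0015) for OAS2 and -0.74 (-0.84 to -0.65, adjusted p = 0.00054) for OAS3. ADAR was lower by -0.17 (adjusted p = 0.0079), EIF2AK2 by -0.19 (adjusted p = 0.023) and OASL by -0.43 (adjusted p = 0.047), and ZC3HAV1 was higher by 0.14 (adjusted p = 0.048), all on the log2 scale by limma. Thus 6 genes were lower and 1 was higher at an adjusted p under 0.05, against 5.35% and 5.88% of all genes tested. This count was lower, at 3 to 5, whichever single library was left out, with the lowest value without DMSO-treated DAC-resistant replicate 1 and 4 without either DAC-treated DAC-resistant library. It was 2, OAS2 and OAS3, in a fit to the 4 DAC-resistant libraries alone. OASL was lost in each of the 8 fits without a library and ZC3HAV1 in 7 of them. Over all settings EIF2AK2 was lost in 6 (adjusted p up to 0.10), ADAR in 3 (up to 0.055) and OAS1 in 1 (0.060), whereas OAS2 and OAS3 had an adjusted p under 0.05 in every setting tried. By size of the log2(FPKM + 1) change, OAS3 came first and ZC3HAV1 last in both lines. The order of neighbours was not tested and moved with the setting: by the plain ratio of means OASL rose most in parental cells, and with some libraries left out EIF2AK2, ADAR and ZC3HAV1 changed places in DAC-resistant cells.

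**Figure D2:**
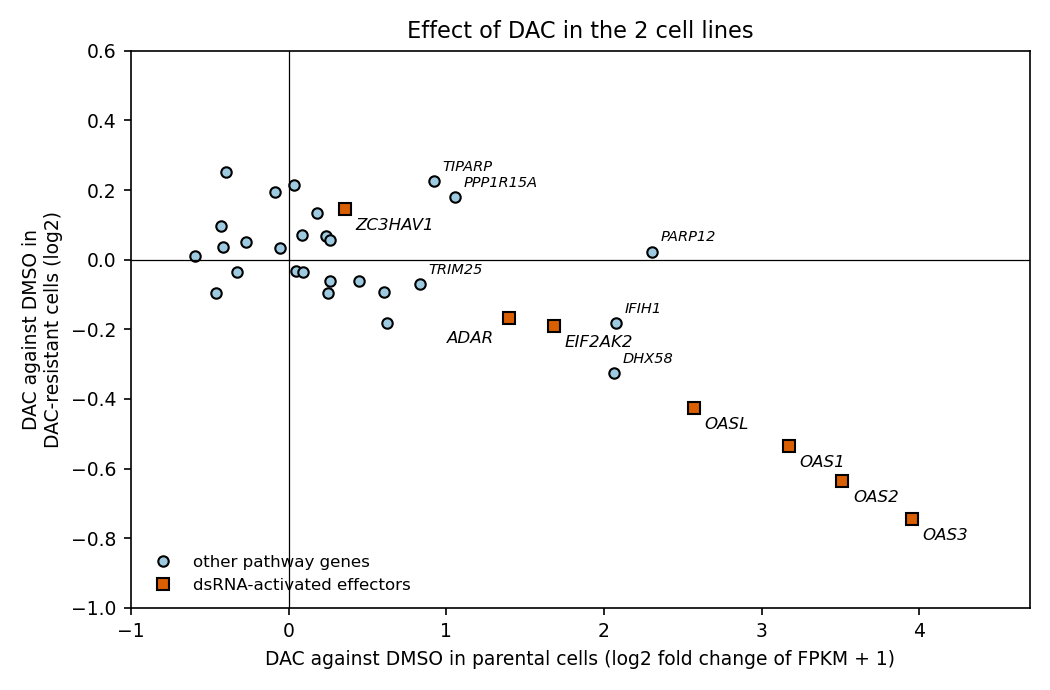
Change with DAC in parental cells (horizontal axis) against the change in DAC-resistant cells (vertical axis), both as log2 fold change of FPKM + 1, for the 7 effectors (squares) and 27 other genes of the same pathways (circles). OAS3 lies at 3.95 and -0.74, and PARP12 at 2.30 and 0.02.

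Without drug, all 7 genes were higher in DAC-resistant than in parental cells, and 3 were called raised: OASL by 2.18 ± 0.10 (adjusted p = 8.4e-06), OAS2 by 1.35 ± 0.051 (adjusted p = 3.7e-06) and OAS3 by 1.14 ± 0.040 (adjusted p = 2.7e-06) on the log2 scale. Of all genes tested, 4.45% were called raised in this comparison. OAS1 (0.64, adjusted p = 1.2e-04), ADAR (0.61, adjusted p = 3.3e-06), ZC3HAV1 (0.56, adjusted p = 2.8e-05) and EIF2AK2 (0.36, adjusted p = 2.3e-04) were higher by less than the fold threshold. All 7 had an adjusted p under 0.05 in the upward direction, as did 31.3% of all genes. Their median difference was 0.64, against 0.018 over all genes. As fold of FPKM, the DMSO-treated DAC-resistant mean was 16.4 times the parental one for OASL, whose low starting level makes this fold imprecise. The fold was 3.0 for OAS2, 2.60 for OAS3 and 1.95 for OAS1, and 1.30 to 1.54 for EIF2AK2, ZC3HAV1 and ADAR. With a pseudocount of 0.1 FPKM, the log2 difference of OASL was 3.67.

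Under DAC the order of the lines turned. OAS3 was lower in DAC-resistant than in parental cells by a log2 difference of -3.56, OAS1 by -3.07, OAS2 by -2.80 and EIF2AK2 by -1.52, so that 4 of the 7 were called lowered where 9.17% of all genes tested were. ADAR differed by -0.95 (95% interval -1.01 to -0.90, adjusted p = 2.7e-07), just short of the fold threshold, and was called at -1.13 after quantile normalization. OASL differed by -0.82 (adjusted p = 4.4e-04) and was not called. ZC3HAV1 was 0.35 higher in DAC-resistant cells (adjusted p = 1.6e-04). At an adjusted p under 0.05, 6 genes were lower and 1 higher, against 35.1% and 32% of all genes. As a share of the DAC-treated parental mean, DAC-treated DAC-resistant cells held 7.01% for OAS3, 7.75% for OAS1, 12.7% for OAS2, 33.7% for EIF2AK2, 50.0% for OASL, 51.2% for ADAR and 128.1% for ZC3HAV1.

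The response to DAC differed between the lines for the same 6 genes. The difference between the effects, DAC-resistant minus parental, was -4.70 for OAS3, -4.15 for OAS2, -3.71 for OAS1, -3.00 for OASL, -1.87 for EIF2AK2 and -1.57 for ADAR, and 7.16% of all genes tested were called in that direction. The size and place of OASL depended on the setting. In a fit to reads recovered from the FPKM values (voom), OASL was at -5.07, beyond OAS1 at -4.66 and OAS2 at -4.56. The adjusted p-values of these 6 (limma interaction, Benjamini-Hochberg) ranged from 1.3e-07 to 1.5e-05. ZC3HAV1 differed by -0.21 (95% interval -0.33 to -0.09, adjusted p = 0.012), which became -0.11 (adjusted p = 0.14) under upper-quartile scaling. All 7 had an adjusted p under 0.05 in the negative direction, as did 28.4% of all genes. The median was -3.00 over the 7 and -0.05 over all genes tested.

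**Figure D3:**
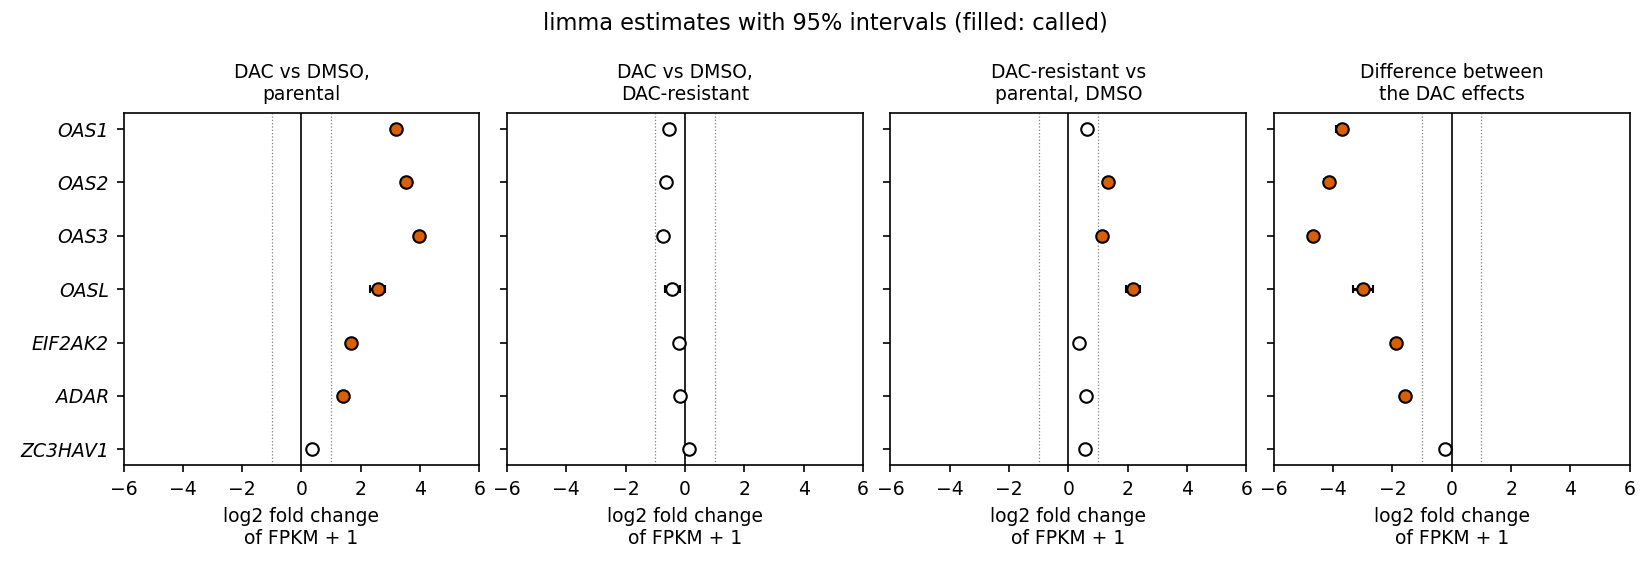
limma log2 fold changes of FPKM + 1 with 95% intervals for the 7 genes in 4 comparisons, where most intervals are narrower than the symbol, dotted lines mark a change of 1 and filled symbols are called genes. In parental cells 6 genes were called raised, in DAC-resistant cells none was called, and the difference between the DAC effects was called for 6.

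Over the 8 libraries, OAS1, OAS2, OAS3, EIF2AK2 and ADAR followed each other, with Pearson correlations of log2(FPKM + 1) from 0.948 to 0.997 between pairs. OASL correlated with these 5 at 0.664 to 0.864. ZC3HAV1 correlated with the 5 at -0.017 to 0.298, and with OASL at 0.704. These describe 8 libraries in 4 groups, and most of the spread lies between groups. The genes whose centred profiles differed least from each member, by the root mean square (RMS) of the log2 difference over the 8 libraries, were PARP9 (0.11), MX2 (0.14) and USP18 (0.16) for OAS1, and TRIM22 (0.13), CMPK2 (0.16) and IRF7 (0.17) for OAS2. For OAS3 they were CXCL8 (0.17), SIGLEC1 (0.18) and IRF7 (0.19), and for OASL NAV3 (0.15), ISYNA1 (0.19) and DDX60 (0.24). For EIF2AK2 they were SP110 (0.056), PRDM1 (0.062) and PTX3 (0.083), for ADAR TGM2 (0.050), CNP (0.055) and TMC8 (0.069), and for ZC3HAV1 LRP12 (0.040), SPAST (0.041) and ZNF93 (0.041). ZC3HAV1 varied least itself, with an RMS of 0.27 about its own mean against 1.54 for OAS3, so its small distances say little.

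The partners and relatives of these effectors were taken as lists. Of 32 genes listed for 6 such groups, 27 passed the filter. In parental cells 4 of the 27 were called raised and none lowered, where 6.66% and 2.64% of all genes tested were. At an adjusted p under 0.05 (limma, Benjamini-Hochberg), 15 were higher and 7 lower, against 33.6% and 24.1% of all genes. In DAC-resistant cells none was called, where 0.114% of all genes were called raised and 0.121% lowered, and 4 were higher and 2 lower at an adjusted p under 0.05, against 5.88% and 5.35% of all genes. The median change of the 27 in parental cells was 0.18, against 0.057 for all genes. EIF2AK3, ZBP1, TLR3, RIGI and ADARB2 did not pass the filter. RIGI (RIG-I, a sensor of dsRNA ends) had means of 0.135 FPKM in DMSO-treated and 0.797 FPKM in DAC-treated parental cells, and 0.207 and 0.174 FPKM in DAC-resistant cells.

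ABCE1, which recycles ribosomes and was the most abundant gene of its list, had means of 20.1 and 18.9 FPKM in parental and 25.5 and 29.4 FPKM in DAC-resistant cells, in DMSO and DAC, and was not called in any comparison. At an adjusted p under 0.05, all 3 genes of its list were higher in DAC-resistant than in parental cells, both in DMSO and in DAC. Of all genes tested, 31.3% and 32% were. With DAC, 2 of the 3 were higher in DAC-resistant cells and none in parental cells, against 5.88% and 33.6% of all genes.

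In the PKR arm, 1 of 8 genes tested was called raised by DAC in parental cells, where 6.66% of all genes were. PPP1R15A (GADD34), which directs a phosphatase to eIF2α and so reverses the action of PKR, rose from a mean of 8.34 to 18.4 FPKM (log2 change 1.06, adjusted p = 3.5e-05). The constitutive relative PPP1R15B, the most abundant gene of this arm, was at 65.0 and 51.6 FPKM in parental and 87.0 and 84.9 FPKM in DAC-resistant cells, in DMSO and DAC, and was not called. At an adjusted p under 0.05, 4 of the 8 were higher and 4 lower in parental cells after DAC, against 33.6% and 24.1% of all genes. None of the 8 passed in DAC-resistant cells, where 5.88% of all genes were higher and 5.35% lower.

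Of the editing arm, only ADARB1 passed the filter. This second editing enzyme (ADAR2) was not called with DAC, but was raised in DMSO-treated DAC-resistant cells, from a parental mean of 1.77 to 5.71 FPKM (log2 difference 1.28, adjusted p = 8.7e-06). Among cofactors and relatives of ZAP, PARP12, a relative that also binds RNA through zinc fingers, rose with DAC in parental cells from a mean of 2.43 to 15.9 FPKM (log2 change 2.30, adjusted p = 3.6e-06). In DAC-resistant cells it was at 2.11 FPKM in DMSO and 2.17 FPKM in DAC, and the difference between the DAC effects was -2.28. TRIM25, the cofactor ZAP needs, rose from 13.2 to 24.3 FPKM (0.83, adjusted p = 3.4e-06), short of the fold threshold, and was at 18.7 and 17.8 FPKM in DAC-resistant cells. ZC3HAV1 thus changed less with DAC than its relative PARP12, a difference that was not tested.

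Of 3 dsRNA sensor and adaptor genes tested, 2 were called raised by DAC in parental cells, where 6.66% of all genes were. IFIH1 (MDA5, the sensor of long dsRNA) rose from a mean of 8.99 to 41.2 FPKM (log2 change 2.08) and DHX58 (LGP2, its regulator) from 1.10 to 7.79 FPKM (2.06) with DAC in parental cells. In DAC-resistant cells IFIH1 was at 13.5 FPKM in DMSO and 11.8 FPKM in DAC, and DHX58 at 2.22 and 1.57 FPKM. The difference between the DAC effects was -2.26 for IFIH1 and -2.39 for DHX58. Both therefore had the group order of the OAS genes in their means. The third, MAVS, the adaptor of these sensors, named here after its values were seen, was at 10.6 FPKM in DMSO and 7.39 FPKM in DAC in parental cells, a log2 change of -0.46 (adjusted p = 2.0e-04, limma), and at 16.5 and 15.3 FPKM in DAC-resistant cells, higher than in parental cells by 0.60 in DMSO (adjusted p = 6.1e-05) and 0.96 in DAC (adjusted p = 4.4e-06). Of 8 other dsRNA-binding proteins, 5 were higher and 2 lower at an adjusted p under 0.05 with DAC in parental cells, against 33.6% and 24.1% of all genes. None of the 8 reached the fold threshold of a call in any comparison, and with the 6.66% of all genes called raised by DAC in parental cells this count says little of them. ILF2, the most abundant of the 8, was at 109.2 and 112.5 FPKM in parental and 138.8 and 135.7 FPKM in DAC-resistant cells, in DMSO and DAC.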

How the data were processed

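The authors made mRNA libraries from total RNA. Their notes name FastQC, cutadapt 1.9.1, HISAT2 2.1.0, SAMtools 1.6 and HTSeq 0.13.5, and the deposited table holds FPKM values per gene, multiplied by 1000, on the human hg38 build. They were divided by 1000 before use. Whether counting used strand is not given in the sources used here. The table also held 1264 rows for repeats, not used here. Multiplying FPKM by annotated exon length (GENCODE v44) gave whole reads, within 0.02 of a read, for 87.1% of gene values. Of 39592 genes above 0, 34961 were so solved and 4624, OASL among them, by ratios between libraries, which gave the depths and reads.

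Genes at 1 FPKM or more in at least 2 of 8 libraries (14899, all 7 members among them) were tested with limma 3.58.1 (R 4.3.3) on log2(FPKM + 1), with 4 group means, a variance trend and Benjamini-Hochberg adjustment over all genes. A call needed p of at most 0.01 and a log2 change of at least 1. The fit was tested on simulated data. Replicates differed by more than counting noise (chi-square per gene 3.85 to 4.07), and none held identical values.

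The members and the lists were chosen with earlier results of these data known. Named genes were the 7 members, listed genes called in any comparison, the most abundant gene of each list and the 3 nearest profiles per member, and RIGI and MAVS were added after their values were seen. A listed gene is not reported here. Promoters are from RefSeq, and protein sequences were not used here. Alternatives were other pseudocounts, filters, scalings, variance settings, recovered reads with voom, a replicate block and leaving out each library.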

Additional observations from a re-analysis of the deposited data

Results flagged for a closer look

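The effect of DAC differed between DAC-resistant and parental cells, by the interaction term of limma, in 6 of the 7 genes. The differences, DAC-resistant minus parental, were -4.70 for OAS3, -4.15 for OAS2, -3.71 for OAS1, -3.00 for OASL, -1.87 for EIF2AK2 and -1.57 for ADAR on the log2(FPKM + 1) scale. The size for OASL depended on the setting, at -5.07 with voom on recovered reads. In each of the 6, both parental DAC libraries were above both parental DMSO libraries, and both DAC-resistant DAC libraries were below both DAC-resistant DMSO libraries. The fit was repeated without each library in turn, which leaves a single library in that group, and under the other settings. All 6 differences stayed negative throughout. The smallest in size were -4.61 for OAS3, -4.06 for OAS2, -3.63 for OAS1, -2.88 for OASL, -1.77 for EIF2AK2 and -1.46 for ADAR.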

How the results depend on the processing

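Of 653 values of the 7 genes across 19 alternative settings, 652 kept their direction and their side of the call threshold, none reversed, and ADAR was called lowered between the DAC-treated lines at -1.13 after quantile normalization. The number of members at an adjusted p under 0.05 with DAC in DAC-resistant cells was 7, and became 4 with no filter on low values, 2 with only the libraries compared in the fit, 4 with variances not moderated, 3 to 5 with a library left out, 5 with the replicate block or quantile normalization, and 6 with a pseudocount of 0.1, the TPM scale, upper-quartile scaling or the filter on a mean of 5 FPKM, where 6 were tested. The causes were not tested. OASL was not tested under the filter on a mean of 5 FPKM. With voom on recovered reads, OASL changed by 4.54 with DAC in parental cells, by 4.07 between the lines in DMSO and by -5.07 as the difference between effects. Same-numbered libraries did not deviate together (correlations -0.022 to 0.020). The values thus showed no pairing by number, but they cannot tell whether same-numbered samples were handled together. With a replicate block the members called stayed at 6, 0, 3, 4 and 6 in the 5 comparisons. Calls over all genes ranged from 573 to 2777 (main 1387) for DAC in parental cells, 6 to 179 (35) in DAC-resistant cells, 517 to 2586 (1300) between lines in DMSO, 908 to 4193 (2154) in DAC and 721 to 2797 (1583) for the difference, lowest with the filter on a mean of 5 FPKM and highest on the TPM scale. Quantile normalization moved the median of all genes for DAC in parental cells from 0.057 to -0.053. With 2 libraries a group, and 45 and 70 reads of OASL in DMSO-treated parental cells, its fold is the least certain.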
